A study of Homo sapiens with 4 samples.

Results

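The linker histone H1 genes were taken by symbol from the gene table of an RNA sequencing study of the BET inhibitor JQ1 in diffuse large B-cell lymphoma cells. They were 8 of the 41507 genes listed, among them HIST1H1A, HIST1H1B, HIST1H1C, HIST1H1D, HIST1H1E and HIST1H1T of the histone cluster on chromosome 6 and H1FX on chromosome 3. SU-DHL-5 and Toledo, both established B-cell lymphoma lines, were each exposed to DMSO, the vehicle, or to JQ1 at 1 µM, for 6 h by the sample labels, whereas the figure legend of the study gives a longer time. Each condition had 1 sample, and each sample had 2 libraries. What separated these libraries was not stated, and their mean stands for 1 replicate. The genes were chosen by name, with the difference between JQ1 and DMSO in these libraries already known. For these reasons no test was made, and all differences below are descriptions of these 4 samples.

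Linker histones bind the nucleosome where DNA enters and leaves it and help to fold chromatin into compact fibres. The genes of the chromosome 6 cluster are mostly transcribed in S phase, together with the core histone genes, and their messages usually end in a stem-loop instead of a poly(A) tail. HIST1H1T is the form of the testis. H1FX is transcribed outside the cluster and yields a polyadenylated message. Cluster H1 genes are recurrently mutated in lymphomas of germinal centre B cells. The libraries were made with a kit that selects polyadenylated messages, so the values of the cluster genes describe mainly that form, and total H1 message was not measured.

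The H1 mRNA of these libraries came almost entirely from HIST1H1C and H1FX, and both were higher under JQ1 in both lines. HIST1H1C was 7.65-fold higher in SU-DHL-5 and 5.48-fold higher in Toledo. H1FX was 2.30-fold higher in SU-DHL-5 and 2.39-fold higher in Toledo. The other 6 genes contributed between 0.0869% and 0.724% of the summed H1 level in any library. Levels are given in RPKM, which scales the reads of a gene to its length and to library depth, and log2 differences are those of library means after 0.1 RPKM was added.

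The libraries held 14617583 to 17679831 mapped reads, as recovered from the RPKM values. The B-cell markers MS4A1, CD79A, CD79B and PAX5 were present in every library, at 5.46 RPKM or more. The T-cell and myeloid markers CD3D, CD3E, CD2, CD14, LYZ and CSF1R did not exceed 1.20 RPKM, and CD2 was listed at 0 throughout.

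HIST1H1C (now named H1-2), at chr6:26055740-26056471 of GRCh38 on the minus strand, consists of 1 exon. In SU-DHL-5 its level was 82.8 and 95.2 RPKM with DMSO and 682 and 679 RPKM with JQ1. In Toledo it was 37.3 and 35.6 RPKM with DMSO and 202 and 198 RPKM with JQ1. The JQ1 libraries of each line lay well above its DMSO libraries, and the distance between conditions was far larger than that between libraries of a sample. The log2 difference was 2.93 in SU-DHL-5, where 2135 reads with DMSO compared with 15504 with JQ1, and the 95% counting interval of the read ratio was 7.29- to 7.98-fold. In Toledo it was 2.45, from 906 and 4740 reads, with an interval of 5.10- to 5.89-fold. These intervals, here and below, cover counting error only. Among genes with at least 100 reads in a library of the comparison, HIST1H1C had the 7th largest increase of 8852 genes in SU-DHL-5. In Toledo it had the 17th of 9156. By level it went from the 888th and 749th most abundant gene to the 125th and 124th in SU-DHL-5, and from the 1680th and 1786th to the 300th and 317th in Toledo.

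H1FX (now H1-10), at chr3:129314771-129316277 on the minus strand, is also a gene of 1 exon. Its level in SU-DHL-5 was 98.5 and 97.4 RPKM with DMSO and 229 and 222 RPKM with JQ1. In Toledo it was 267 and 251 RPKM with DMSO and 599 and 640 RPKM with JQ1. Both JQ1 libraries were again above both DMSO libraries in each line. The log2 difference was 1.20 for SU-DHL-5, with a counting interval of 2.23- to 2.38-fold, and 1.26 in Toledo, with an interval of 2.34- to 2.44-fold. It ranked 58th in SU-DHL-5 and 70th in Toledo among the same genes. H1FX overlaps the antisense gene H1FX-AS1 by 7 bases in the table, and H1FX-AS1 was listed at 0 in all 8 libraries. Whether the counting used strand was not stated.

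**Figure D1:**
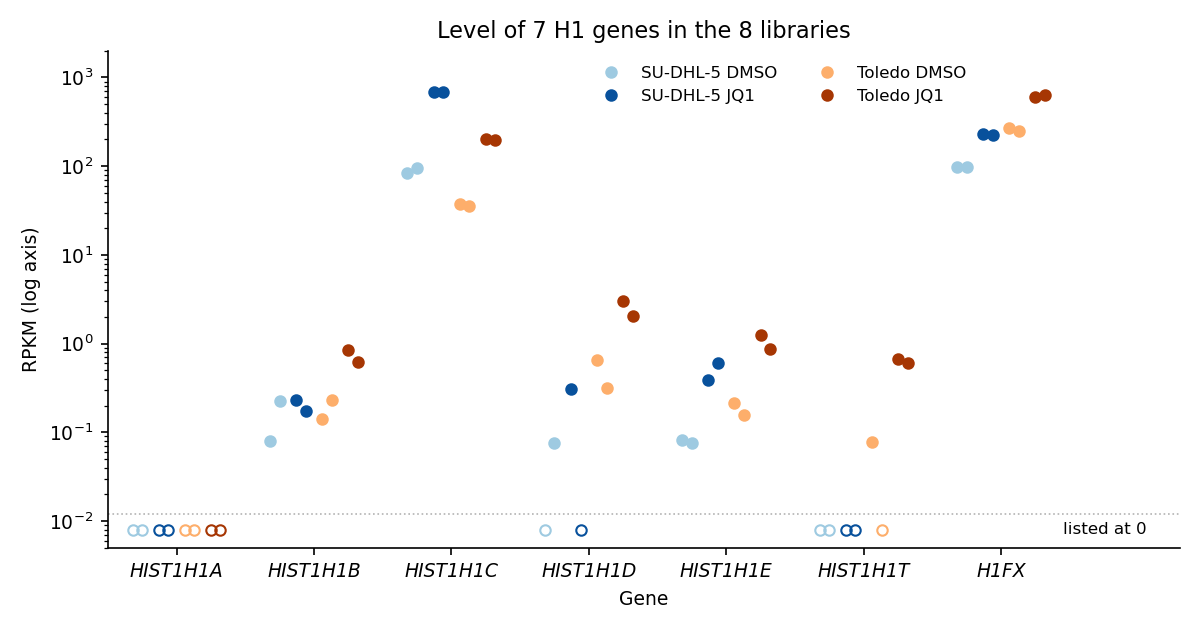
Level of 7 H1 genes in RPKM on a log axis, with 1 point per library and colours for line and treatment; open points below the dotted line are libraries in which the gene was listed at 0. HIST1H1C and H1FX lie between 35.6 and 682 RPKM in all 8 libraries, and none of the others shown exceeds 3.01 RPKM.

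The remaining cluster genes were close to the detection limit. A level equal to 3 reads, taken here as the floor, corresponded to 0.217 to 0.263 RPKM for HIST1H1A, which was listed at 0 in all libraries. HIST1H1D (now H1-3) was the most abundant of them in Toledo, where 9 and 4 reads with DMSO (0.655 and 0.317 RPKM) compared with 38 and 26 with JQ1 (3.01 and 2.07 RPKM). Its log2 difference was 2.17 and the counting interval of the ratio was 2.81- to 10.2-fold. In SU-DHL-5 the same gene had 0 and 1 reads with DMSO and 4 and 0 with JQ1, so that the libraries overlapped. HIST1H1E (now H1-4) had 3 and 2 reads with DMSO and 16 and 11 with JQ1 in Toledo, a log2 difference of 2.02 with an interval of 2.15- to 18.8-fold. In SU-DHL-5 it had 1 and 1 reads with DMSO and 5 and 7 with JQ1, a log2 difference of 1.75 with an interval of 1.40- to 58.0-fold. Its libraries did not overlap in either line.

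HIST1H1B (now H1-5) had 2 and 3 reads with DMSO and 11 and 8 with JQ1 in Toledo, with an interval of 1.44- to 13.6-fold. In SU-DHL-5 its 1 and 3 reads with DMSO overlapped its 3 and 2 reads with JQ1. HIST1H1T (now H1-6) was listed at 0 in all 4 libraries of SU-DHL-5. In Toledo it had 1 and 0 reads with DMSO and 8 and 7 with JQ1, and the interval of the ratio ran from 2.42- to 661-fold. The coding sequences of the cluster H1 genes resemble each other, and reads of near-identical stretches could have been assigned to the wrong copy. The values of the low genes are therefore uncertain beyond their counting error. The germline linker histones H1FOO, H1FNT and HILS1 were listed at 0 in all libraries.

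**Figure D2:**
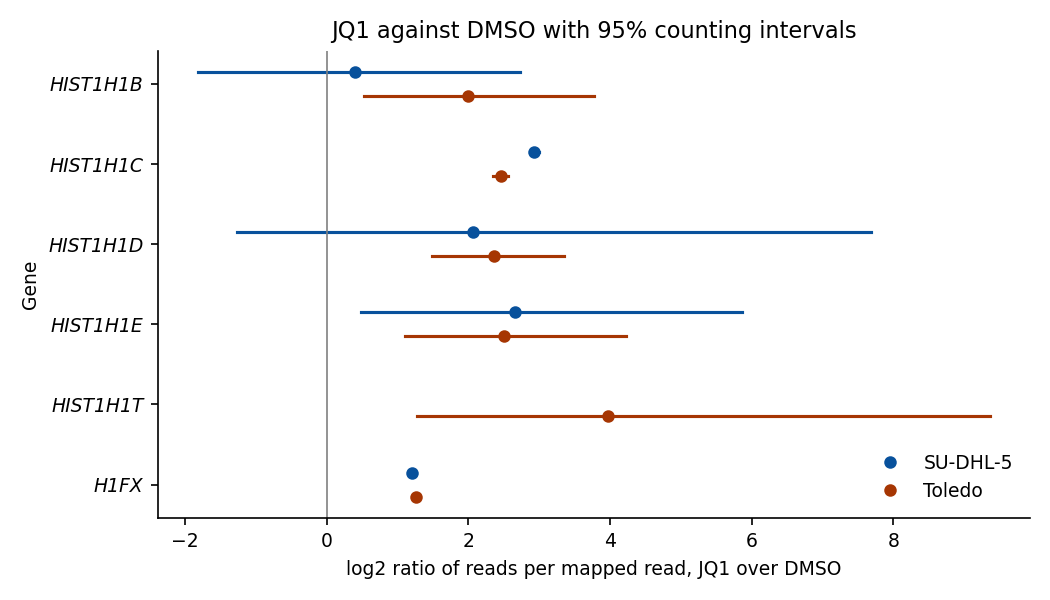
Ratio of reads per mapped read, JQ1 over DMSO, on a log2 scale for the H1 genes with reads in both conditions of a line; points are the ratios and bars the 95% counting intervals. The bars of HIST1H1C and H1FX are short and lie at or above 1.15, whereas HIST1H1B and HIST1H1D in SU-DHL-5 reach below 0.

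Counted over the list, 5 H1 genes had reads in SU-DHL-5, and both JQ1 libraries were above both DMSO libraries for 3 of them, against 33.6% of the 13268 genes with reads. The same 3 exceeded a log2 difference of 1, against 1.83% of these genes. In Toledo 7 H1 genes had reads and all 7 had JQ1 libraries above the DMSO libraries, against 24.2% of 14122 genes, although the low genes rested on as few as 1 read in a library. Of these, 6 exceeded a log2 difference of 1, against 2% of all genes. No H1 gene had its JQ1 libraries below its DMSO libraries, compared with 37% of genes for SU-DHL-5 and 40.4% for Toledo, and none was lower by 1 or more on the log2 scale, compared with 7.38% and 9.18%. For H1 genes with reads, the median log2 difference in SU-DHL-5 was 1.20, beside −0.03 over all genes with reads. In Toledo it was 2.02, beside −0.10. Both medians depended on genes with few reads, and with 1 RPKM added they were 0.47 and 0.80. The counts of genes over 1 depended on the added value too. With 1 RPKM added, HIST1H1B, HIST1H1E and HIST1H1T in Toledo were at 0.55, 0.80 and 0.66. HIST1H1E in SU-DHL-5 was then at 0.47. Among genes of 1 exon with at least 100 reads, histone genes left out, 2.53% of 79 exceeded a log2 difference of 1 in SU-DHL-5, as did 4.21% of 95 in Toledo. Only 2 H1 genes, HIST1H1C and H1FX, had that many reads. Among all genes of 1 exon with reads, histone genes included, the shares were 13.1% of 251 and 14.8% of 290.

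The mix of H1 messages differed between the lines and shifted under JQ1. With DMSO, SU-DHL-5 had nearly equal levels, with HIST1H1C at 45.6% and 49.3% of the summed H1 RPKM and H1FX at 54.3% and 50.5%. With JQ1, HIST1H1C made up 74.8% and 75.3% of the sum in this line. In Toledo H1FX predominated under both conditions, at 87.4% in each DMSO library and 74.3% and 76.0% in the JQ1 libraries, while HIST1H1C went from 12.2% and 12.4% to 25.0% and 23.5%. The HIST1H1C to H1FX ratio was 3.31 times higher with JQ1 in SU-DHL-5 (counting interval 3.13 to 3.51) and 2.29 times higher in Toledo (2.13 to 2.47). Summed over all 8 genes, the level was 187 RPKM with DMSO and 907 RPKM with JQ1 in SU-DHL-5, a 4.84-fold difference. In Toledo it was 296 and 825 RPKM, a 2.78-fold difference. The summed levels were thus closer between lines with JQ1, where Toledo was at 0.910 of SU-DHL-5, than with DMSO, where it was at 1.58 times SU-DHL-5.

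**Figure D3:**
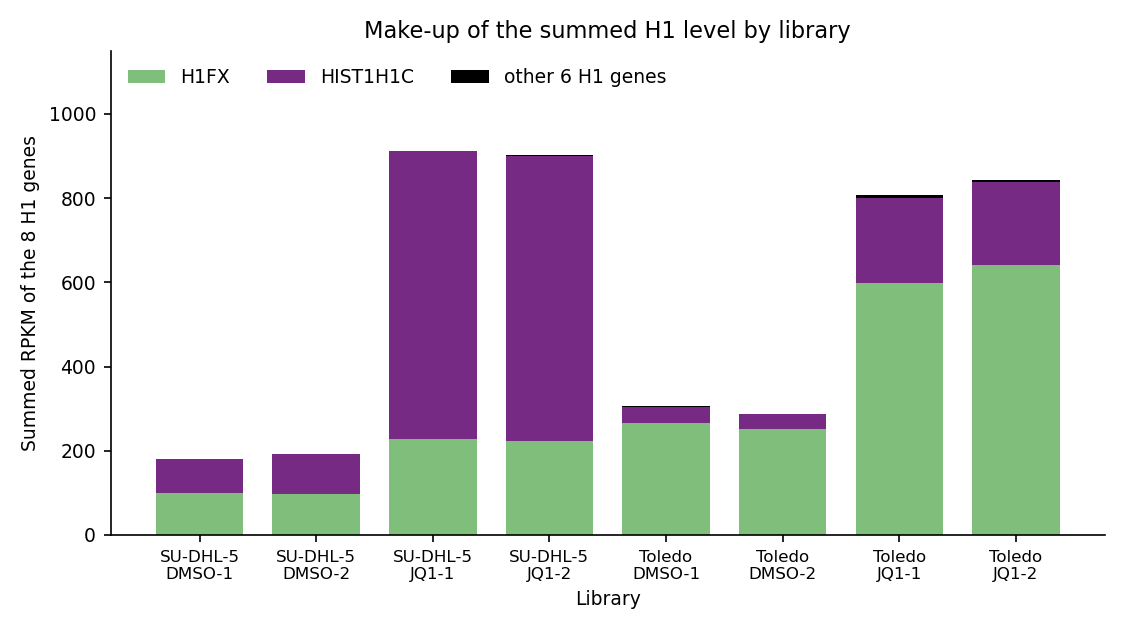
Summed RPKM of the 8 H1 genes in each library, stacked by gene. The sum is 181 to 305 in the DMSO libraries and 807 to 912 in the JQ1 libraries, with HIST1H1C the larger share in SU-DHL-5 JQ1 and H1FX the larger share in Toledo JQ1.

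Between the lines, the 2 abundant genes stood in opposite order. With DMSO, HIST1H1C in Toledo was at 0.410 of its level in SU-DHL-5 (interval 0.378 to 0.442), whereas H1FX was 2.64-fold higher in Toledo (2.56 to 2.74). The libraries of the lines did not overlap for either gene, which was the case for 36.6% of 14490 genes in the direction of HIST1H1C and 40.4% in that of H1FX, and 12.9% and 16.8% passed a log2 difference of 1 in these directions. With JQ1, HIST1H1C in Toledo was at 0.294 of SU-DHL-5 and H1FX was 2.75-fold higher. The log2 difference under JQ1 was larger in SU-DHL-5 than in Toledo for HIST1H1C by 0.48, with a counting interval of 0.35 to 0.60. Over pairs of libraries it ran from 2.83 to 3.04 for SU-DHL-5, above the range of 2.40 to 2.51 for Toledo. For H1FX the lines differed by −0.05 (−0.11 to 0.004), and the ranges of 1.17 to 1.23 in SU-DHL-5 and 1.17 to 1.35 in Toledo overlapped. In the order of levels within Toledo JQ1, HIST1H1D stood below HIST1H1C and above HIST1H1E, and HIST1H1B at 0.856 and 0.628 RPKM could not be separated from HIST1H1T at 0.678 and 0.598 RPKM.

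The promoters of the H1 genes are shown because the cluster members share elements that H1FX lacks in the same window. RefSeq sequences (GRCh38.p14, 250 bases before to 50 after the start) were found for 7 of the 8 genes. The 130 bases before each start are given 5′ to 3′ on the strand of the gene, with AAACACA (the H1 box), CCAAT and TATAA in capitals. The letters searched were chosen with these sequences known.
HIST1H1C, chr6:26056471-26056600, minus strand: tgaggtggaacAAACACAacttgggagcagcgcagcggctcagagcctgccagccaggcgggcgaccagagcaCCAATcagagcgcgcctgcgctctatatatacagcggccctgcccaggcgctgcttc
HIST1H1D, chr6:26234988-26235117, minus strand: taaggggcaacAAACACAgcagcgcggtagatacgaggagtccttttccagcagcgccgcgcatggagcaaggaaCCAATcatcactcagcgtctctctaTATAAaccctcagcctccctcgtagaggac
HIST1H1E, chr6:26156199-26156328, plus strand: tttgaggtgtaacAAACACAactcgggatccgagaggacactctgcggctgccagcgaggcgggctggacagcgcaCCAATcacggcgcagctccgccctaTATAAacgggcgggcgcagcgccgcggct
HIST1H1B, chr6:27867589-27867718, minus strand: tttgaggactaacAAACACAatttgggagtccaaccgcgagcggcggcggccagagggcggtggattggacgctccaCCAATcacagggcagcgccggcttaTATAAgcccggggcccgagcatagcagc
HIST1H1T, chr6:26108136-26108265, minus strand: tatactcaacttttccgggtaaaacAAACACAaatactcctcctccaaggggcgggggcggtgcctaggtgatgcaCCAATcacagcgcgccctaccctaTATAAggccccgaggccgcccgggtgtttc
HIST1H1A, chr6:26017788-26017917, minus strand: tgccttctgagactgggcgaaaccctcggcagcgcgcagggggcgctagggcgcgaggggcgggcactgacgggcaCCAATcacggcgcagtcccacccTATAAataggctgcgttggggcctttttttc
H1FX, chr3:129316287-129316416, minus strand: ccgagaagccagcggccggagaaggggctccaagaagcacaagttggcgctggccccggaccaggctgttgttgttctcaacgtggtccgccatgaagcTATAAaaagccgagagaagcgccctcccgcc
In HIST1H1C, HIST1H1D, HIST1H1E, HIST1H1B and HIST1H1T the H1 box began between 119 and 105 bases before the start, and AACAAACACA was the longest stretch around it that all 5 shared. This longer form was present on either strand in 0.148% of the 35116 promoters of the same length, and AAACACA alone in 5.64%. HIST1H1A had AAACACA only on the opposite strand, and farther upstream. CCAAT began 57 to 53 bases before the start in all 6 cluster genes, and ACCAATCA, the longest stretch shared around it, was held by 1.87% of promoters, while CCAAT alone was in 34.6%. TATAA, found in 20.4% of promoters on either strand, began 31 to 28 bases before the start in 5 cluster genes and in H1FX. HIST1H1C had no exact match to TATAA, but its stretch reads tatatata between the CCAAT box and the start. Such related forms were not searched, so the missing TATAA does not show that this gene lacks a TATA box. No match to AAACACA or CCAAT was found in the H1FX window. HIST1H1C shared its H1 and CCAAT boxes with 4 genes that had few or no reads in these libraries of polyadenylated messages. The part of these boxes in the H1 levels, or in the differences under JQ1, was not tested.

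**Figure D4:**
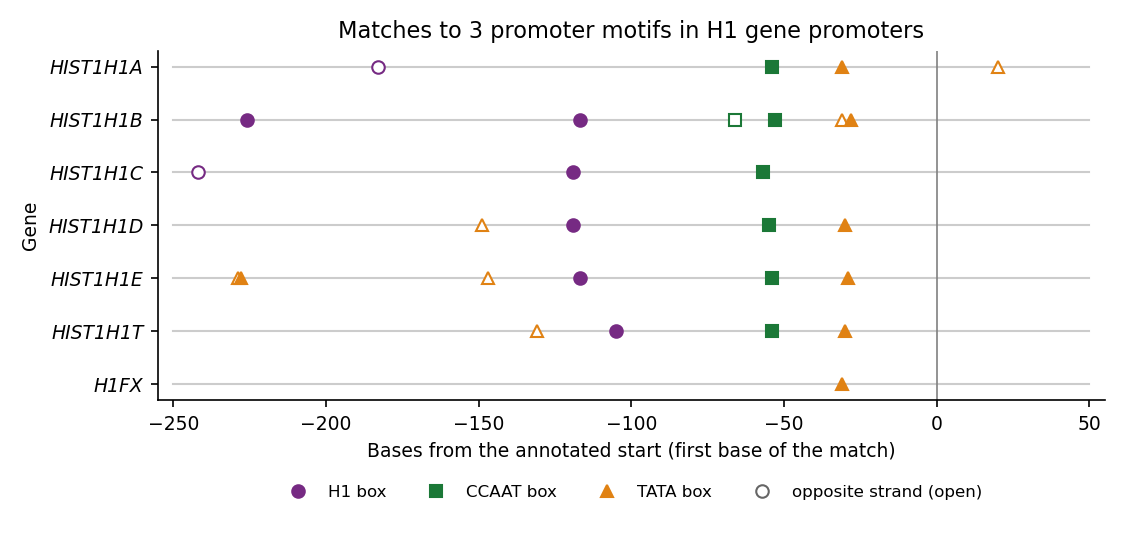
Positions of the 3 motifs in the promoters of 7 H1 genes, in bases from the annotated start; filled symbols are on the strand of the gene and open symbols on the opposite strand. The H1 box of 5 cluster genes stands 119 to 105 bases before the start and the CCAAT box of all 6 stands 57 to 53 bases before it, while H1FX has only a TATA box.

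For the 3 genes given here, the annotated transcript ends carry the marks of the classes of message named above. The end of HIST1H1C, the abundant cluster gene, is not among them. The last 30 bases in GENCODE 29 are given for 3 genes whose annotated transcript runs past the stop codon, with GGCTCTTTT, the beginning of the histone stem-loop, or AATAAA, the polyadenylation signal, in capitals.
HIST1H1E, chr6:26157078-26157107, plus strand: gcccaacacaacccaaaGGCTCTTTTcaga
HIST1H1T, chr6:26107419-26107448, minus strand: ttggaaagaacccaaaGGCTCTTTTaagag
H1FX, chr3:129314771-129314800, minus strand: ttgggcacAATAAAgcgtttaaacctttca
GGCTCTTTT was present in the last 30 bases of 15 of 83129 protein-coding transcripts (0.0180%), and AATAAA in 30.6% of them. For HIST1H1A, HIST1H1B, HIST1H1C and HIST1H1D the annotated transcripts stop at the stop codon, so their ends were not compared. Transcripts annotated in this way leave out any stem-loop, so the share of 0.0180% also reflects the annotation.

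The core histone genes of the clusters, which encode H2A, H2B, H3 and H4, were higher under JQ1 along with the H1 genes. The list was taken by symbol and includes pseudogenes, those with PS in their symbol, which were listed at 0 throughout. Of 81 listed, 53 had reads in SU-DHL-5, where the JQ1 libraries were above the DMSO libraries for 35 and below for 2, beside 33.6% and 37% of all genes with reads, and the median log2 difference was 1.65. In Toledo 57 had reads, 38 were above and 0 below, beside 24.2% and 40.4% of all genes, and the median was 1.62. The summed core histone level was 63.5 RPKM with DMSO and 321 RPKM with JQ1 in SU-DHL-5, and 180 and 1093 RPKM in Toledo, where it exceeded the summed H1 level under JQ1. HIST2H2BE, an H2B gene, was at 0.40 and 0.58 RPKM with DMSO and 7.96 and 7.82 with JQ1 in SU-DHL-5. HIST2H4B, an H4 gene with a near-identical copy, was at 7.86 and 9.64 RPKM with DMSO and 101 and 98.3 with JQ1 in Toledo.

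On the chromosome, HIST1H1E lies 727 bases from HIST1H2BD, another H2B gene. HIST1H2BD was at 2.26 and 3.58 RPKM with DMSO and 23.5 and 22.2 with JQ1 in SU-DHL-5, a log2 difference of 2.93, and the difference in Toledo was 2.50. The nearest neighbours of HIST1H1T were HIST1H2BC, with log2 differences of 2.77 and 3.14, and HIST1H4C, with −0.47 and 0.14 and overlapping libraries in both lines. HIST1H3C, next to HIST1H1C on one side, was listed at 0 throughout. HFE, an iron regulator and the neighbour on the other side, was at 0.349 and 0.513 RPKM with DMSO and 0.176 and 0.177 with JQ1 in SU-DHL-5. In Toledo it was at 0.237 and 0.318 RPKM with DMSO and 0.0198 and 0.0800 with JQ1. Its JQ1 libraries lay below its DMSO libraries in both lines, as for 37% and 40.4% of all genes with reads. The log2 differences of −0.94 and −1.33 rest on these low levels. The gene beside H1FX, HMCES, had a log2 difference of −0.15 in SU-DHL-5 but of 0.46 in Toledo.

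Replacement histones, whose genes lie outside the clusters and most of which are made throughout the cell cycle, had lower medians than the core histone genes. Of 10 listed, 8 had reads in SU-DHL-5, with 6 above and 2 below, beside 33.6% and 37% of all genes, and a median log2 difference of 0.47. In Toledo all 10 had reads, with 4 above and 2 below, beside 24.2% and 40.4%, and a median of 0.16. H2AFJ differed by 1.19 and H2AFX, whose product marks DNA breaks once phosphorylated, by 0.91 in SU-DHL-5, and H3F3B, which encodes histone H3.3, by 0.57 in Toledo. In Toledo the libraries of H2AFJ overlapped, with a difference of 0.15.

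**Figure D5:**
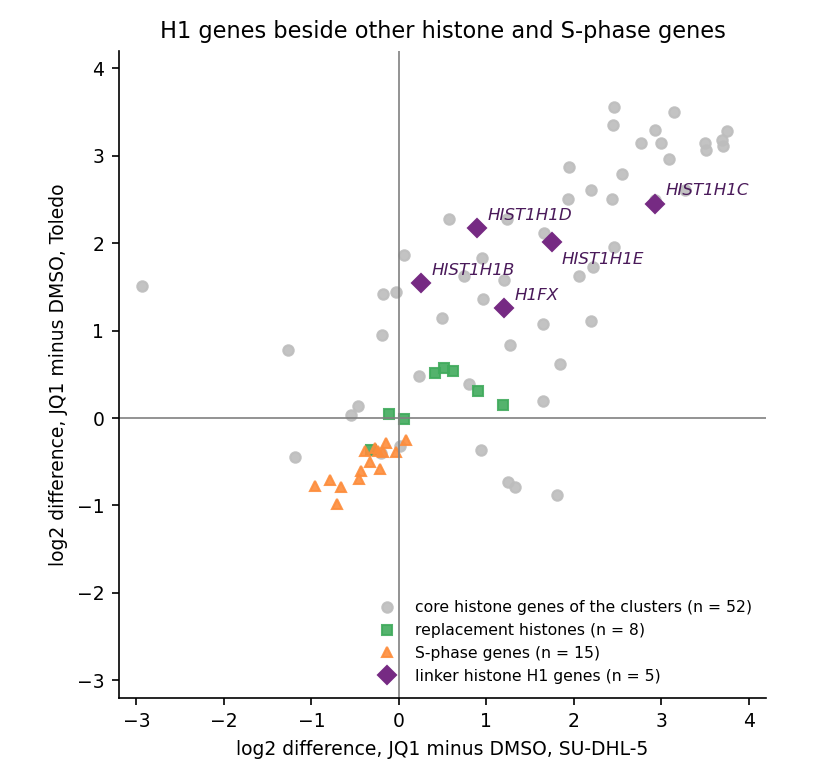
Log2 difference between JQ1 and DMSO in SU-DHL-5 (horizontal axis) and Toledo (vertical axis) for genes with reads in both lines, 1 point per gene and a symbol per list. Values above 0 in both lines were seen for all 5 H1 genes and 38 of 52 core histone genes, as against 5 of 8 replacement histones and 0 of 15 S-phase genes. The libraries of HIST1H1B and HIST1H1D overlapped between conditions in SU-DHL-5, and from library 2 alone both were below 0 there (−0.24 and −0.81). No share over all genes is set beside these counts.

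The S-phase genes had the opposite direction. Their JQ1 libraries were below the DMSO libraries for 13 of 15 in SU-DHL-5, with 0 above and a median log2 difference of −0.33, and for 15 of 15 in Toledo, with a median of −0.50, beside 37% and 40.4% of all genes. MCM5, a subunit of the replicative helicase, was at 179 and 161 RPKM with DMSO and 85.6 and 88.7 with JQ1 in SU-DHL-5. CDC25A, a phosphatase that drives entry into S phase, was at 16.9 and 20.1 RPKM with DMSO and 9.62 and 9.06 with JQ1 in Toledo. The part of cell cycle position in the H1 values was not tested.

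Genes that make and process histone messages showed smaller differences. Of 16, the JQ1 libraries were above for 4 and below for 8 in SU-DHL-5, beside 33.6% and 37% of all genes, and the median log2 difference was −0.18. For Toledo they were above for 2 and below for 9, beside 24.2% and 40.4% of all genes, and the median was −0.20. The largest difference was that of LSM11, a subunit of the particle that cleaves histone messages after the stem-loop. It was at 3.56 and 3.13 RPKM with DMSO and 1.80 and 1.66 with JQ1 in SU-DHL-5, and at 3.84 and 4.35 and 2.33 and 1.86 in Toledo, a log2 difference of −0.91 and −0.93. ZNF473, which takes part in the same cleavage, differed by −0.48 and −0.60. The part of message processing in the H1 values was not tested.

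Of 8 genes for H1 chaperones and proteins that compete with H1 on chromatin, 3 were above and 4 below in SU-DHL-5, where all genes gave 33.6% and 37%. In Toledo 1 was above and 4 below, where all genes gave 24.2% and 40.4%. HMGN2, a nucleosome-binding protein, was at 1091 and 1188 RPKM with DMSO and 1576 and 1574 with JQ1 in SU-DHL-5. NASP, a chaperone of H1, had a log2 difference of −0.27 in this line. In Toledo the libraries of both genes overlapped, with log2 differences of 0.02 for HMGN2 and 0.01 for NASP. HMGA1 had the largest difference of the list in Toledo, −0.34, and was at −0.31 in SU-DHL-5, with its JQ1 libraries below in both lines. SET was also below in both lines (−0.25 in SU-DHL-5 and −0.26 in Toledo), whereas HMGN1 was above in both (0.18 and 0.26).

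The genes whose values over the 8 libraries were most like those of HIST1H1C, by the root mean square difference of centred log2 values among 9728 genes, were OCEL1 at 0.62, PLCD3 at 0.63 and ELL2, a factor of transcription elongation, at 0.75, beside a median of 1.61 over all genes. OCEL1 was at 11.4 and 10.2 RPKM with DMSO and 27.2 and 28.4 with JQ1 in SU-DHL-5. Those most like H1FX were PHLDA1 at 0.14, KIAA0513 at 0.20 and ZC3H10 at 0.20, beside a median of 1.05. PHLDA1 and KIAA0513 were near 0.1 RPKM in SU-DHL-5 DMSO, where the added 0.1 RPKM compresses differences. ZC3H10 was at 2.76 and 2.80 RPKM with DMSO and 7.49 and 7.03 with JQ1 in SU-DHL-5. The 8 libraries came from 4 samples and share their line and treatment.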

How the data were processed

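Stranded mRNA libraries of both lymphoma lines were sequenced, with 1 sample per condition. The authors deposited a gene table and a transcript table in RPKM, which scales reads by length and mapped reads. The submitters' processing notes name CASAVA 2.0, GRCh38 and hg38, and the aligner, counter and annotation are not given in the sources used here.

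Mapped reads per library and gene lengths were recovered from the RPKM values as those that gave whole reads (within 0.02) for 14942 of 14944 genes. Libraries of a sample were averaged. Log2 differences used 0.1 RPKM added, and intervals were exact 95% intervals of the recovered reads (binomial, or conditional odds ratio for ratios of ratios), which cover counting error only. No test was made. A call was both libraries of a condition on one side of both of the other, or a log2 difference over 1. Procedures were tested on simulated data.

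The members and lists were chosen with earlier results of these data known. Named genes were the members, except for 1 that is not reported here by name and stays in the counts and sums, up to 3 genes per list and line with the largest difference among genes with at least 100 reads, the chromosome neighbours, and the 3 genes most like each abundant member. Alternatives varied the added value, scaling, length centring, library, table and filter. All 8 members had 1 transcript with equal values in both tables. The tools were scipy 1.17.1, pandas 2.3.3 and numpy 2.4.6 under Python 3.11.15, matplotlib 3.10.9 for plots and GENCODE 29 for exons and transcript ends.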

Additional observations from a re-analysis of the deposited data

How the results depend on the processing

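No H1 gene with a log2 difference over 1 changed direction under another setting. With 1 RPKM added, however, HIST1H1B, HIST1H1E and HIST1H1T in Toledo and HIST1H1E in SU-DHL-5 fell below 1. HIST1H1D in SU-DHL-5, at 0.89 and called higher only at 1.5-fold, was −0.81 from library 2 alone. HIST1H1B in SU-DHL-5, at 0.26, was −0.24 from library 2 alone. Across settings the log2 difference ran from 2.83 to 3.04 for HIST1H1C and from 1.17 to 1.26 for H1FX in SU-DHL-5, and from 2.42 to 2.57 and from 1.17 to 1.38 in Toledo. The median over the 5 H1 genes with reads in SU-DHL-5, 1.20, was 1.79 with 0.01 RPKM added, 0.47 with 1 RPKM added, 1.26 centred on genes of like length and 1.42 from library 1 alone. Over genes of at least 1 RPKM it was 2.07, but only 2 genes, HIST1H1C and H1FX, passed that filter. The median in Toledo, 2.02, was 0.80 with 1 RPKM added. The summed H1 level in SU-DHL-5, a log2 difference of 2.28, was 2.32 centred on length and 2.33 and 2.22 from library 1 and library 2 alone. In Toledo, at 1.48, it was 1.53 scaled by the median ratio of all genes, 1.59 centred on length and 1.40 and 1.55 from library 1 and library 2 alone. The causes of these shifts were not tested. In Toledo DMSO the ratio between the 2 libraries moved with gene length (Spearman 0.64 across genes, which are not replicates). In Toledo JQ1 it moved in the opposite direction (−0.31), against −0.08 in SU-DHL-5 DMSO and −0.07 in SU-DHL-5 JQ1. At a cutoff of 1.5-fold, 8.26% of all genes and 4 H1 genes were called higher in SU-DHL-5, against 6.79% and 6 in Toledo. No paired analysis was possible because there was only 1 sample in each condition, which also left no replicate to omit. Depth limits every H1 gene other than HIST1H1C and H1FX.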
